A study of Mus musculus with 4 samples.

Results

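Cell polarity regulators were examined in satellite cells, the stem cells of skeletal muscle, from aged and young mice. They comprise the Par complex (Pard3, Pard6a, Pard6b, Pard6g), the atypical protein kinases C that work within it (Prkci, Prkcz), the small GTPase Cdc42, the Scribble group proteins Scrib and Llgl1, and the cell fate determinant Numb. Members were all probe sets that the platform annotation assigns to exactly 1 of these 10 genes. The rule found 22 probe sets of 34945 with a single gene, and all 10 genes were represented among the 18193 genes measured.

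Aged mice were 20 to 25 months old and young mice 3 to 6 months old, all C57BL/6 (C57BL/6J in the strain label) with no allele or treatment named. Cells from hindlimb muscle were pooled over several mice (4 to 8 in the series text, 6 to 8 in the sample text) and sorted by FACS for the surface proteoglycan syndecan-4, which other cells of muscle can also carry. There were 2 pools per age with 1 Affymetrix array each, so 4 arrays in all. Their numbers come from the labels, and the pools are called aged 1, aged 2, young 1 and young 2. The series title concerns p38 signalling and self-renewal in aged muscle, and the comparison of ages is the only one the design allows.

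Polarity proteins sort the contents of a cell to opposite sides before it divides. In the Par complex, PARD3 and PARD6 are scaffolds that hold an atypical protein kinase C, and active CDC42 binds PARD6 and relieves the inhibition of the kinase. Scribble group proteins mark the opposite domain, and among them LLGL1 is excluded from the Par side by phosphorylation. NUMB restrains Notch signalling in the daughter that inherits it. In mouse satellite cells NUMB can segregate to 1 daughter, and the Par complex has been tied to the activation of p38 alpha and beta in 1 daughter of an asymmetric division. These are events of protein position, which RNA arrays do not measure.

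Every value below is taken as log2, with higher taken to mean more RNA, and is relative to the median of that probe set over the 4 arrays, as the authors deposited it. A value of 0 is therefore not absence, and no level can be set against that of another gene. In a single probe set 0 is the middle of the 4 arrays, which need not hold for a mean of several. Each difference is aged minus young, ± the standard error of the limma fit (n = 2 pools per age), where limma borrows variance information across genes. A gene is the mean of its probe sets, p-values were adjusted by the Benjamini-Hochberg method over all 18193 genes, and 0.05 was the threshold. An exact permutation test of 2 pools against 2 cannot give a two-sided p below 0.333. In pooled cells, fewer cells of a type and less RNA per cell cannot be told apart.

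No polarity regulator passed the threshold. Of the 10 genes, 6 stood higher and 4 lower in aged cells, with a median difference of 0.15, while over all genes 53.8% were higher and 46.2% lower, with a median of 0.05. With limma, 0 of the 10 had an adjusted p under 0.05, as had 0 of all genes (0%). Prkci alone had an unadjusted p under 0.05, 1 of 10 against 9.04% of all genes. The 95% interval of the other 9 included 0. Intervals were wide, so that in 10 of 10 genes the interval reached a log2 difference of 1 in at least 1 direction, a doubling or a halving. The plot of gene differences shows the same with the probe sets behind each gene.

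**Figure D1:**
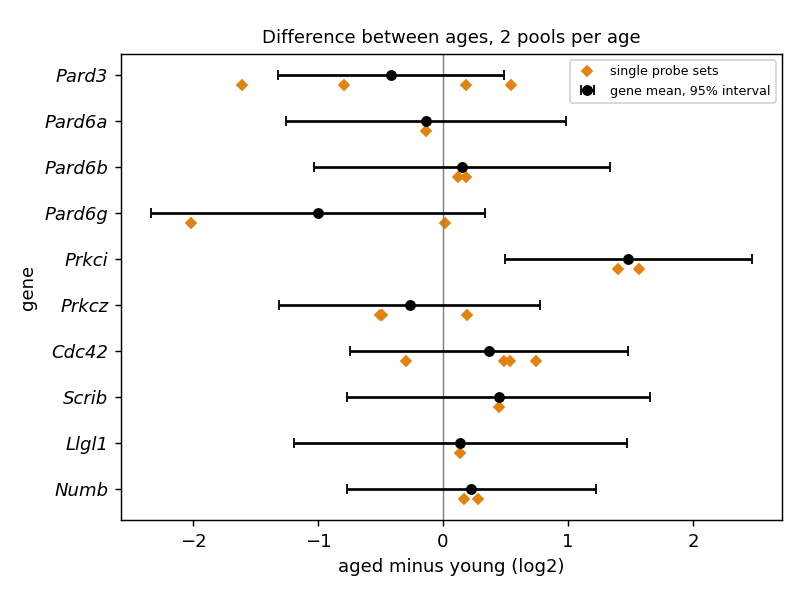
Aged minus young difference (log2, horizontal axis) of the 10 polarity regulators (vertical axis). Black points are gene means with the 95% interval of the limma fit (2 pools per age), and diamonds are the single probe sets of the gene. Prkci lies at 1.48 with an interval above 0, and the other 9 intervals include 0.

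Prkci encodes the atypical protein kinase C known as iota, or lambda in mouse, the catalytic subunit of the Par complex. Its gene value was 1.34 in aged 1 and 0.97 in aged 2, against -0.55 in young 1 and -0.10 in young 2. Both aged pools were above both young pools. The difference was 1.48 ± 0.40 (95% interval 0.50 to 2.47), which is 2.80-fold, with an unadjusted p of 0.0109 and an adjusted p of 0.321 by limma. It ranked 617 of 18193 genes by p.

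The 2 probe sets of Prkci gave like differences from unlike pools. Probe set 1448695_at stood at 2.64 in aged 1 and 0.16 in aged 2, against -0.17 in young 1 and -0.16 in young 2. Probe set 1417410_s_at stood at 0.05 in aged 1 and 1.77 in aged 2, against -0.94 in young 1 and -0.05 in young 2. The first was high in aged 1 alone and the second in aged 2 alone, although both are annotated to the same transcript, NM_008857. By the array maker's naming, the s in the suffix of the second marks a probe set that may match transcripts of different genes. Their differences were 1.57 ± 0.90 and 1.40 ± 0.75, and neither had an unadjusted p under 0.05 (0.147 and 0.123 by limma over all probe sets).

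The gap between the aged pools (aged 2 minus aged 1) was -2.48 in one Prkci probe set and 1.73 in the other. In their mean it was -0.38. The standard error of the gene mean, 0.40, was thus below that of either probe set. The unadjusted p of 0.0109 belongs to this mean, in which opposite deviations of the aged pools cancel.

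**Figure D2:**
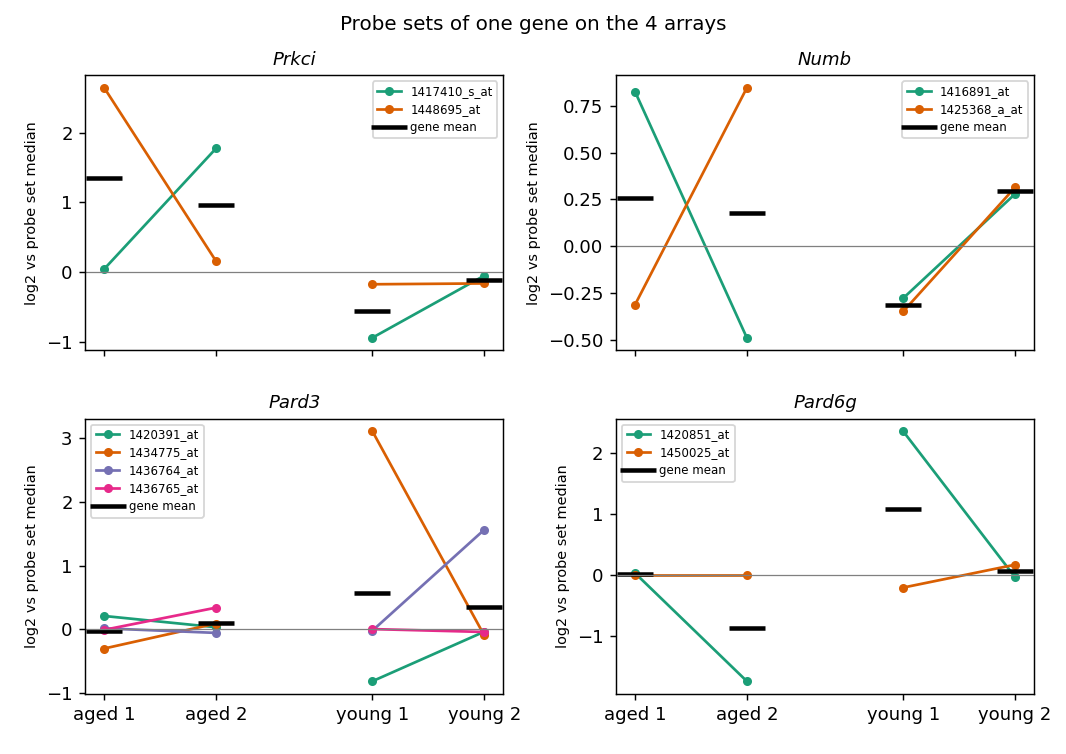
Values of each probe set (coloured lines, log2 relative to the probe set median, vertical axis) in the 2 aged and the 2 young pools (horizontal axis) for Prkci, Numb, Pard3 and Pard6g, with the gene mean as a black bar. Lines cross between the aged pools in Prkci and Numb, and single pools stand far from the rest in Pard3 (3.11 in young 1) and Pard6g (2.36 in young 1).

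Prkcz encodes the zeta isoform of the same kinase family. Its gene value was 0.22 in aged 1 and -0.50 in aged 2, against 0.04 in young 1 and 0.22 in young 2, so the ages overlapped. The difference was -0.27 ± 0.42 (95% interval -1.31 to 0.78, adjusted p = 0.931 by limma). Of its 3 probe sets, 1 stood higher and 2 lower, from -0.51 to 0.19. Probe set 1449692_at was high in young 2 (1.32) and 1454902_at low in aged 2 (-1.05), and no other value of the 3 exceeded 0.56 in size. Whether the 2 kinases differ from each other in their response was not tested.

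Pard3, the scaffold that recruits the rest of the complex to the membrane, had gene values of -0.02 in aged 1 and 0.10 in aged 2, against 0.57 in young 1 and 0.35 in young 2. The ages did not overlap, and the difference was -0.42 ± 0.36 (95% interval -1.32 to 0.49, adjusted p = 0.854 by limma). Single probe sets did not show this order. Of the 4, 2 stood higher and 2 lower, and 0 had both aged pools below both young pools.

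The extremes of Pard3 came from 1 pool each. Probe set 1434775_at stood at -0.30 in aged 1 and 0.09 in aged 2, against 3.11 in young 1 and -0.09 in young 2. Probe set 1436764_at stood at 0.02 in aged 1 and -0.05 in aged 2, against -0.02 in young 1 and 1.56 in young 2. Each was high in a different young pool. Probe set 1420391_at, in contrast, had both aged pools (0.21 and 0.03) above both young pools (-0.81 and -0.03), a difference of 0.55 ± 0.47. Probe set 1436765_at stayed within 0.34 of its median (0.18 ± 0.41). With the median of the 4 probe sets in place of the mean, the difference of Pard3 was 0.056.

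Among the Pard6 scaffolds, which bind CDC42 and the kinase, Pard6g had the most negative value. Its gene value was 0.02 in aged 1 and -0.87 in aged 2, against 1.08 in young 1 and 0.07 in young 2. The ages did not overlap, although aged 1 and young 2 were close, and the difference was -1.0 ± 0.54 (2.00-fold lower, 95% interval -2.34 to 0.34, adjusted p = 0.702 by limma). This rests on 1 of its 2 probe sets. Probe set 1420851_at stood at 0.03 in aged 1 and -1.74 in aged 2, against 2.36 in young 1 and -0.03 in young 2, a difference of -2.02 ± 1.05. In it aged 1 was above young 2, so the ages overlapped. Probe set 1450025_at, annotated to the same transcript (NM_053117), lay at its median in both aged pools, against -0.20 in young 1 and 0.17 in young 2, and differed by 0.02 ± 0.41.

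Pard6b was measured by 2 probe sets that ran in parallel, at -0.39 and -0.25 in aged 1 and 0.66 and 0.50 in aged 2, against -0.50 and -0.09 in young 1 and 0.39 and 0.09 in young 2. Pools numbered 2 stood above pools numbered 1 at either age. The gene difference was 0.15 ± 0.47 (95% interval -1.03 to 1.33). Pard6a, with a single probe set, stood at 0.25 in aged 1 and -0.52 in aged 2, against -0.25 in young 1 and 0.26 in young 2. Its pools were in opposite order at the 2 ages, and its difference was -0.14 ± 0.45 (95% interval -1.26 to 0.99).

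Cdc42, the GTPase whose active form switches on the Par complex, had gene values of 0.52 in aged 1 and -0.18 in aged 2, against 0.09 in young 1 and -0.48 in young 2. The ages overlapped, because aged 2 was below young 1, and the difference was 0.37 ± 0.45 (95% interval -0.75 to 1.48, adjusted p = 0.907 by limma). Within pools of the same number aged cells were higher, by 0.43 for number 1 and 0.31 for number 2. Of its 4 probe sets, 3 stood higher. In 2 of them, 1449574_a_at and 1460708_s_at, both aged pools were above both young pools, with differences of 0.49 ± 0.40 and 0.74 ± 0.45. The fourth, 1435807_at, stood at 0.20 in aged 1 and -0.57 in aged 2, against 0.43 in young 1 and -0.20 in young 2 (-0.30 ± 0.51). It is the only Cdc42 probe set without an a or s in its suffix. By the array maker's naming those letters mark probe sets that match several transcripts of a gene (a) or of possibly different genes (s), and with such probe sets left out Cdc42 stood at -0.30.

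Scrib and Llgl1, scaffolds of the domain opposite the Par complex, had 1 probe set each, and in both genes the pool numbered 2 stood above the pool numbered 1 at either age. Scrib stood at -0.13 in aged 1 and 0.90 in aged 2, against -0.26 in young 1 and 0.13 in young 2 (difference 0.44 ± 0.49, 95% interval -0.77 to 1.66). Llgl1 stood at -0.43 in aged 1 and 0.71 in aged 2, against -0.34 in young 1 and 0.34 in young 2 (0.14 ± 0.54, 95% interval -1.20 to 1.47). In both genes aged 2 was the highest array, and the gap between the 2 aged pools (1.04 for Scrib, 1.15 for Llgl1) exceeded the difference between ages.

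Numb gave a difference of 0.23 ± 0.40 (95% interval -0.77 to 1.22, adjusted p = 0.943 by limma). Its 2 probe sets were in opposite order in the aged pools and in the same order in the young pools. Probe set 1416891_at stood at 0.82 in aged 1 and -0.49 in aged 2, against -0.28 in young 1 and 0.28 in young 2. Probe set 1425368_a_at stood at -0.31 in aged 1 and 0.85 in aged 2, against -0.35 in young 1 and 0.31 in young 2. The ages overlapped in both.

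**Figure D3:**
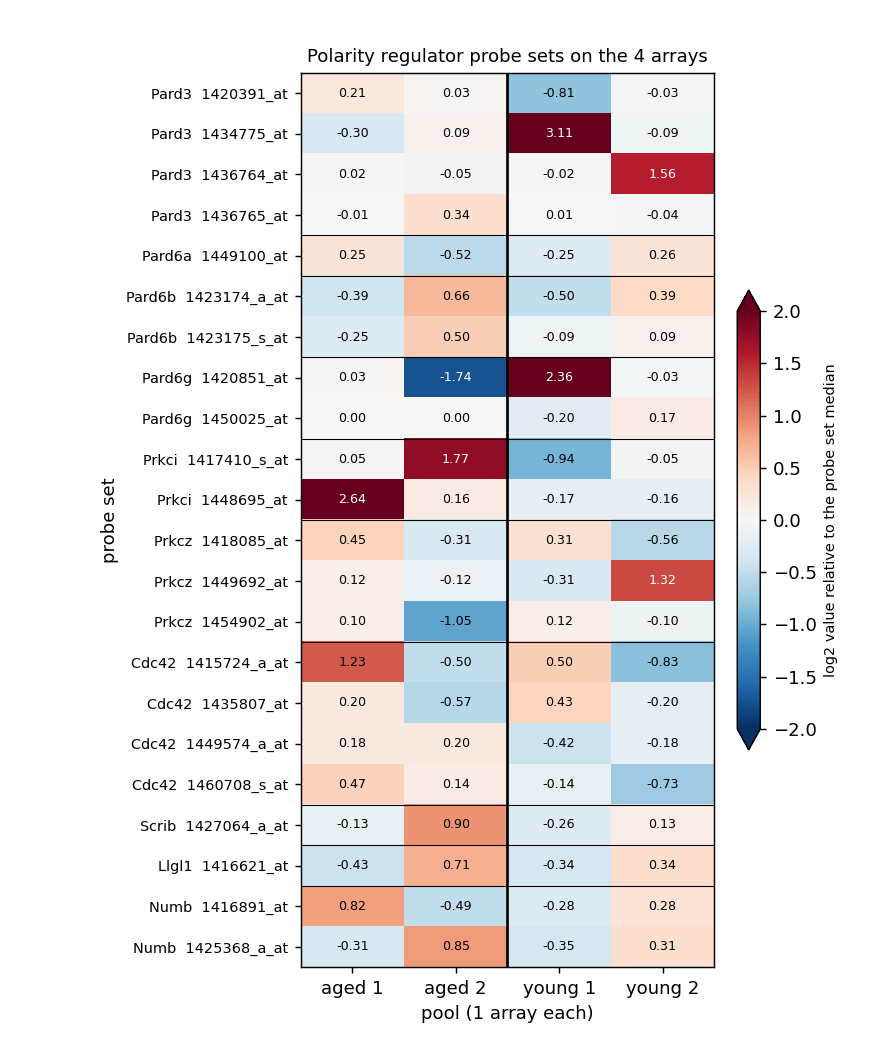
Values of the 22 probe sets (rows, grouped by gene) in the 2 aged and the 2 young pools (columns), as log2 relative to the median of the probe set. Colours saturate at 2 in size and the printed numbers are the values. In 5 probe sets (1420391_at of Pard3, both of Prkci, 1449574_a_at and 1460708_s_at of Cdc42) both aged pools exceed both young pools.

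Across the 22 probe sets, 15 stood higher and 7 lower in aged cells, against 52.7% and 47.3% of all probe sets with a single gene. By limma over all probe sets, 0 of 22 had an adjusted p under 0.05 (0% of all) and 0 of 22 an unadjusted p under 0.05 (7.94% of all). In 5 of 22 both aged pools were above both young pools (18.4% of all), and in 0 of 22 both were below (16.3% of all). At gene level aged was above young in 1 of 10 (19.9% of all genes) and below young in 2 of 10 (16.9%). The second kind, Pard3 and Pard6g, showed this order in the mean and in none of their probe sets. Among all genes with several probe sets whose mean had aged below young, 9.16% had no single probe set that did.

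Probe sets of 1 gene often differed from each other. The 7 members with several probe sets agreed in the direction of the age difference in 3 cases (Prkci, Pard6b, Numb), which is 42.9%, against 42.5% of the 9010 genes with several probe sets. All probe sets placed the 2 aged pools in the same order in 2 of these 7 members, Pard6b and Prkcz (28.6%, against 38.2%). They placed the young pools in the same order in 3 of 7, namely Prkci, Pard6b and Numb (42.9%, against 38.3%). Among genes with exactly 2 probe sets, the age direction was shared in 3 of 4 members (75%, against 56% of 4695 genes) and the order of the aged pools in 1 of 4 (25%, against 53%).

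For most members the age difference was no larger than the gap between pools of 1 age. It exceeded both gaps in 2 of 10 genes, Prkci and Pard3, against 24.9% of all genes. The median size of the age difference was 0.32 over the 10 genes. The median gap was 0.75 between the aged pools and 0.53 between the young pools. Over all genes the same medians were 0.37, 0.48 and 0.46. Members therefore differed between ages by about as much as other genes did, and their pools of the same age lay somewhat farther apart, which was not tested.

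In 5 of 10 genes the pools numbered 1 and 2 stood in the same order at both ages, against 56.4% of all genes. Pard6b, Scrib and Llgl1 were higher in the pools numbered 2, and Pard6g and Cdc42 were lower in them. Nothing in the labels says what a shared number stands for. Within pools of the same number the age difference had the same sign in 5 of 10 genes (56.1% of all genes). Prkci (1.90 for number 1, 1.07 for number 2), Cdc42 and Scrib (0.12, 0.77) were positive in both, while Pard6g (-1.06, -0.94) and Pard3 (-0.59, -0.25) were negative in both.

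**Figure D4:**
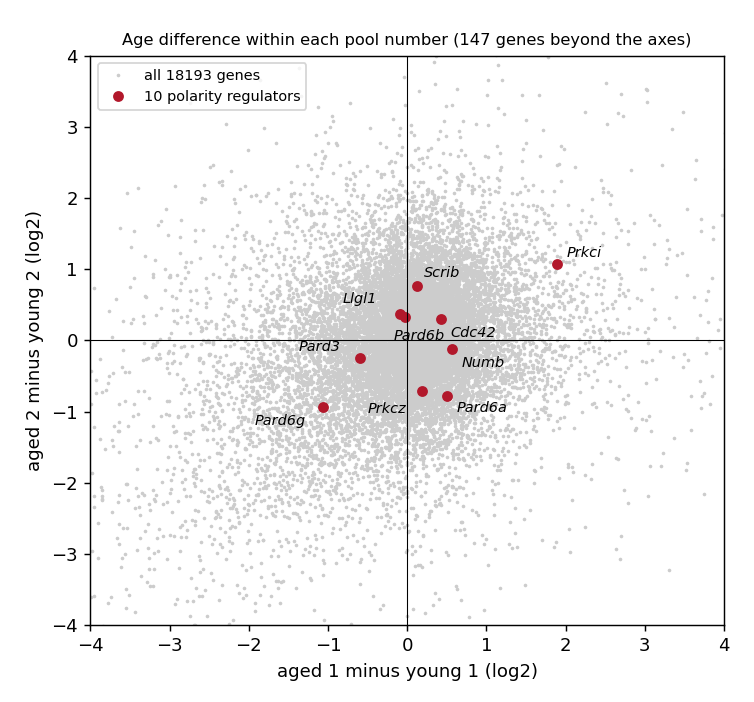
Difference between aged 1 and young 1 (horizontal axis, log2) and between aged 2 and young 2 (vertical axis, log2) for the 10 polarity regulators (red) and all 18193 genes (grey), with 147 genes beyond the axes. Prkci lies at 1.90 and 1.07 in the upper right, Pard6g at -1.06 and -0.94 in the lower left, and most other members near the middle of the cloud.

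Direction often depended on 1 pool. With each pool left out in turn, 4 of 10 genes kept their sign, and 6 did not. Prkci ran from 1.26 to 1.71, Pard6g from -1.50 to -0.50, Pard3 from -0.53 to -0.31 and Cdc42 from 0.02 to 0.71. The adjusted p of Prkci was between 0.301 and 0.783 under every alternative run, and its unadjusted p missed 0.05 without aged 1, without young 1, with a variance trend, or with probe set 1448695_at alone. Aged 2 was the array farthest from the median in 10 of 22 probe sets (45.5%, against 29.2% of all probe sets). In 8 of 22 at least 1 array lay 1 or more from the median, which is 36.4% against 40.1% of all.

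Other genes of cell polarity, from lists of 81 genes of which 76 were measured, were split evenly. In aged cells 38 stood higher and 38 lower, with a median difference of 0.0053. By limma 0 of 76 had an adjusted p under 0.05. At an unadjusted p under 0.05 there were 2 higher and 2 lower genes, where 2.85% of all genes were higher and 6.19% lower.

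The other Par proteins (12 measured) include the PAR-1 kinases Mark1 to Mark4, the PAR-4 kinase Stk11 and the 14-3-3 proteins, which bind phosphorylated partners such as PARD3. Of these, 5 stood higher and 7 lower, with a median of -0.18. The 14-3-3 genes lay on both sides. Ywhaz stood at 0.52 in aged 1 and 0.41 in aged 2, against -0.39 in young 1 and -0.70 in young 2 (1.01 ± 0.37, adjusted p = 0.488 by limma). Ywhag stood at -0.83 in aged 1 and -0.40 in aged 2, against 0.11 in young 1 and 0.92 in young 2 (-1.13 ± 0.45, adjusted p = 0.544). In both the ages did not overlap. The Ywhaz difference was 1.87 without its probe sets of x, s or a suffix, and the Ywhag difference was -0.73 without young 2. Mark3, with 1 probe set, was low in aged 2 (-2.01) and high in young 1 (1.26) and differed by -1.61 ± 0.81 (adjusted p = 0.664 by limma). Its ages overlapped, with aged 1 at 0.03 and young 2 at -0.03. The Mark3 difference was -0.59 without aged 2, -0.96 without young 1 and -2.63 without aged 1. Mark2, which dystrophin binds in mouse satellite cells to position PARD3, differed by -0.18 ± 0.38.

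Genes that orient the mitotic spindle (11 measured) stood higher in 7 cases, with a median of 0.22. Gnai3, a G protein subunit that anchors the spindle machinery at the cortex, had 0.44 in aged 1 and 0.80 in aged 2, against -0.81 in young 1 and -0.44 in young 2. Both aged pools were above both young pools, by 1.24 ± 0.39 (adjusted p = 0.405 by limma). In the main setting this was the smallest p among the 76 genes. Without its probe sets of x, s or a suffix the Gnai3 difference was 0.88 (adjusted p = 0.666 by limma). In that setting the p of Ywhaz was smaller (adjusted p = 0.198 by limma). Dync1h1, the heavy chain of cytoplasmic dynein that pulls on the spindle, stood at -0.19 in aged 1 and -0.56 in aged 2, against 0.33 in young 1 and 0.74 in young 2 (-0.91 ± 0.39, adjusted p = 0.593).

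Planar polarity genes (14 measured) stood higher in 8 cases, with a median of 0.24. Fzd7, the receptor through which Wnt7a drives planar polarity and symmetric expansion of mouse satellite cells, stood at -0.31 in aged 1 and -1.13 in aged 2, against 0.48 in young 1 and 0.43 in young 2. Both aged pools were lower, by -1.17 ± 0.43 (adjusted p = 0.495 by limma). Without aged 2 the Fzd7 difference was -0.76. The FZD7 partner Vangl2 stood at 0.31 ± 0.38 and Wnt7a at 0.26 ± 0.39.

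Cdc42bpb, a kinase that binds active CDC42, differed by 0.82 ± 0.37 with all aged values above the young ones. Other Scribble group genes were higher in 5 of 7 cases (median 0.20), led by Dlg3 at 0.84 ± 0.36. Crumbs complex genes were lower in 5 of 6 cases (median -0.12). Numb relatives and ligases were lower in 2 of 3 cases (median -0.69). Genes of the dystrophin link were higher in 2 of 3 (median 0.08). None of these genes had an unadjusted p under 0.05, and the plot of the lists shows their spread around the median of all genes.

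**Figure D5:**
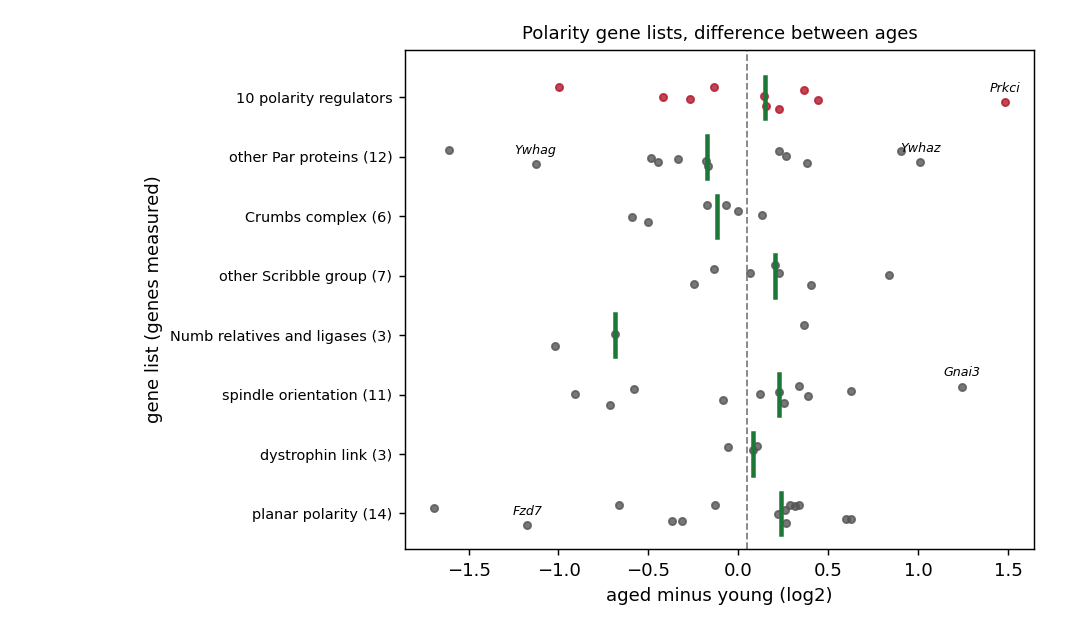
Aged minus young difference (log2, horizontal axis) of single genes (points) in the 10 polarity regulators and 7 lists of other polarity genes (vertical axis, number measured in brackets), with the list median as a green bar and the median of all genes, 0.05, as a dashed line. Named points have an unadjusted p under 0.05 by limma, and every list spans 0.

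The pools also differed in other cell types' markers, whose part in the values above was not tested. Markers of mature fibres were lower in 24 of 24 cases (median -2.83), and their mean per pool was -1.41 in aged 1 and -1.52 in aged 2, against 1.37 in young 1 and 1.25 in young 2. Pericyte and smooth muscle markers were higher in 10 of 10 (median 1.05), fibro-adipogenic progenitor markers in 8 of 9 (0.90), T cell markers in 7 of 7 (0.65), Schwann cell markers in 4 of 4 (1.01) and epithelial markers in 5 of 6 (0.38). Macrophage markers were lower in 8 of 11 (-1.07) and endothelial markers in 8 of 10 (-0.41). Of 17 satellite cell markers, 8 stood higher (median -0.02). Pax7, which defines satellite cells, differed by 2.31 ± 0.36 and the sorted Sdc4 by 1.22 ± 0.53. None of these genes passed the adjusted threshold. Since the values are centred, whether any marker was absent from a pool could not be read. Differences between ages do not show which cells the pools held, so the sorted identity could not be checked.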

How the data were processed

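The authors deposited 1 table of 45101 probe sets on 4 arrays, taken here as log2 values from their range and sign; no source used here states the log base, background correction, probe summary or normalization. Row medians are 0 within 5e-07. If the base were not 2, folds would change and p-values would not. Per the labels' protocols, RNA went through 2 rounds of T7 amplification. Gene symbols came from the array's annotation and were brought up to date through Entrez IDs in a RefSeq table (GRCm38.p6, 34741 matched). Of them 34945 had 1 symbol, 932 several and 9160 none, and 64 were controls. Only those with 1 symbol were used.

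The test was limma 3.58.1 under R 4.3.3 (lmFit and eBayes, two-sided, aged minus young, 2 residual and 3.56 prior degrees of freedom for genes), and the pipeline was tested on simulated data. Alternatives were quantile normalization, the replicate number as a block, leaving out each pool, a variance trend, robust variances, the median over probe sets, and probe sets without x, s or a suffixes. Members and lists were chosen with earlier results of these data known. All members were named with every probe set; of the other polarity genes, those with an unadjusted p under 0.05 and the 4 with the smallest p in each direction, plus Pax7 and Sdc4. The summary of 1 further polarity list is not reported here. Mark2, Vangl2 and Wnt7a were named after their values were seen. P-values set each difference against the spread between pools, as limma moderates it across genes, and the number of arrays limits precision. Figures were drawn with matplotlib 3.10.9.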

Additional observations from a re-analysis of the deposited data

How the results depend on the processing

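No member gene or probe set, and no gene of the wider polarity lists, had an adjusted p under 0.05 in any of the settings run. Over all genes the variance trend called 221, 0 of them members, but it models variance on the mean of centred values, which is no expression level. By limma, members with an unadjusted p under 0.05 numbered 1 of 10 in the main setting (1645 of all 18193 genes). With the replicate block there were 2 (1768 of all genes), Prkci and Pard6g, the second noted after its value was seen. With the variance trend there were 0 (1766 of all genes). Without probe sets of x, s or a suffix there were also 0 (1377 of the genes left in that setting). Of 22 probe sets the number was 0 in the main setting and 2 with the replicate block. The share over all probe sets with the block was not computed. In the wider lists the number was 4 in the main setting and 2 without x, s and a probe sets. It was 6 with the replicate block and 6 with the variance trend. The number of members higher was 3 without x, s and a probe sets, where Pard6b and Scrib have none left, and 3 to 7 with 1 pool left out. Signs turned for Pard3 with the median of probe sets (0.056), for Cdc42 without x, s and a probe sets (-0.30) and for the Pard6g probe set 1450025_at under quantile normalization (-0.016). With 1 pool left out 9 gene values and 21 probe set values turned sign. Genes then ran from -0.43 to 0.71 for Llgl1, -0.079 to 0.53 for Numb, -0.52 to 0.25 for Pard6a, -0.30 to 0.60 for Pard6b, -0.63 to 0.092 for Prkcz and -0.073 to 0.96 for Scrib. Probe sets ran from -0.34 to 0.71 for 1423174_a_at and -0.25 to 0.50 for 1423175_s_at of Pard6b, -0.17 to 0.20 for 1450025_at of Pard6g, -0.24 to 0.63 for 1418085_at, -1.32 to 0.31 for 1449692_at and -1.06 to 0.086 for 1454902_at of Prkcz, -0.33 to 1.40 for 1415724_a_at and -0.68 to 0.089 for 1435807_at of Cdc42, and -0.49 to 0.82 for 1416891_at and -0.30 to 0.86 for 1425368_a_at of Numb. The causes were not tested. The labels do not say what a shared replicate number stands for, and 2 pairs do not settle whether it pairs the pools. Deviations of same-numbered pools correlated at 0.138 over all genes, and the block changed no adjusted call. Signal over background is unknown, so dim probe sets could not be set apart.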
